A study of Arabidopsis thaliana with 12 samples.

Results

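The genes described here are 10 Arabidopsis thaliana genes of the morning side of the circadian clock. They are the MYB transcription factor genes CCA1 (AT2G46830), LHY (AT1G01060), RVE1 (AT5G17300), RVE2 (AT5G37260), RVE4 (AT5G02840) and RVE8 (AT3G09600), and the coactivator genes LNK1 (AT5G64170), LNK2 (AT3G54500), LNK3 (AT3G12320) and LNK4 (AT5G06980). They were chosen by name, with every exon or intron segment listed for them, from 27444 nuclear protein-coding genes of the RefSeq annotation. Whole seedlings of 4 groups were sequenced in 3 libraries each, 12 in all, from total RNA depleted of rRNA: rrc1-3 given red light, rrc1-3 kept dark, Col-0 given red light and Col-0 kept dark. The rrc1-3 seedlings carry an allele of RRC1 in the Col-0 background, and Col-0 is the wild type. All seedlings grew in darkness for 4 days, and the red light groups were then exposed for 3 h to red light of 7 µmol m-2 s-1. The mutant is represented by this 1 allele, and the study's design text states that splicing was compared between mutant and wild type in light and darkness.

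As background, CCA1 and LHY are paired single-MYB repressors that peak around dawn, are induced by light through the phytochromes, and bind the evening element in the promoters of evening genes such as TOC1. RVE8 and RVE4 share the same DNA-binding domain but activate evening genes, and LNK1 to LNK4 are light-inducible proteins without a DNA-binding domain that are recruited by the RVE proteins as coactivators. RVE1 and RVE2 belong to a further branch of the family that acts on clock outputs. In dark-grown seedlings the first red light reaches phytochrome B, and RRC1 is a serine/arginine-rich-like splicing factor known for its role in phytochrome B signalling.

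All 10 genes had at least 1 segment in the authors' deposited splicing tables, with 27 distinct segments in all (bins, each an exon part or an intron, on TAIR10 coordinates). Of these, 21 were introns, and all 21 began with GT and ended with AG in the reference used here. The map of the 10 genes shows where the bins lie, and the segments that carry the clearest differences between genotypes are printed first, from the RefSeq copy of the genome (TAIR10.1), 5′ to 3′. RVE1 exon 4 (chr5:5691551-5691612, minus strand, coding, 62 nt) is part of the stretch that encodes the MYB domain, and it is shown because it was skipped more often in rrc1-3. The exon is in capitals, with 10 bases of each flanking intron in lower case.
RVE1 exon 4: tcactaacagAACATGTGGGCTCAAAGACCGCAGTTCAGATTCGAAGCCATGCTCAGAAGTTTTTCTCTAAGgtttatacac

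RVE4 (chr5:651142-651193, plus strand) and RVE8 (chr3:2948136-2948187, plus strand) share an arrangement at the end of intron 7, where 2 acceptor sites lie 22 bases apart. The 22 bases in capitals are kept in the mRNA when the nearer acceptor is used, and 17 of the 22 positions match between the genes.
RVE4 intron 7 end: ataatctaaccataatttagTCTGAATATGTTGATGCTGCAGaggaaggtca
RVE8 intron 7 end: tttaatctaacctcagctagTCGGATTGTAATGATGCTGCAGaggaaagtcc

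LNK4 has acceptor sites only 3 bases apart at the end of intron 2 (chr5:2168196-2168245, plus strand), and the capitals mark these 3 bases.
LNK4 intron 2 end: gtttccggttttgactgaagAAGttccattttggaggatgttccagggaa

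LNK1 exon 2 (chr5:25675911-25676040, minus strand, 130 nt) holds the annotated start codon near its end. The capitals show its coding bases, followed by 10 intron bases.
LNK1 exon 2, coding end: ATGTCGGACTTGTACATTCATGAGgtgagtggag

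**Figure D1:**
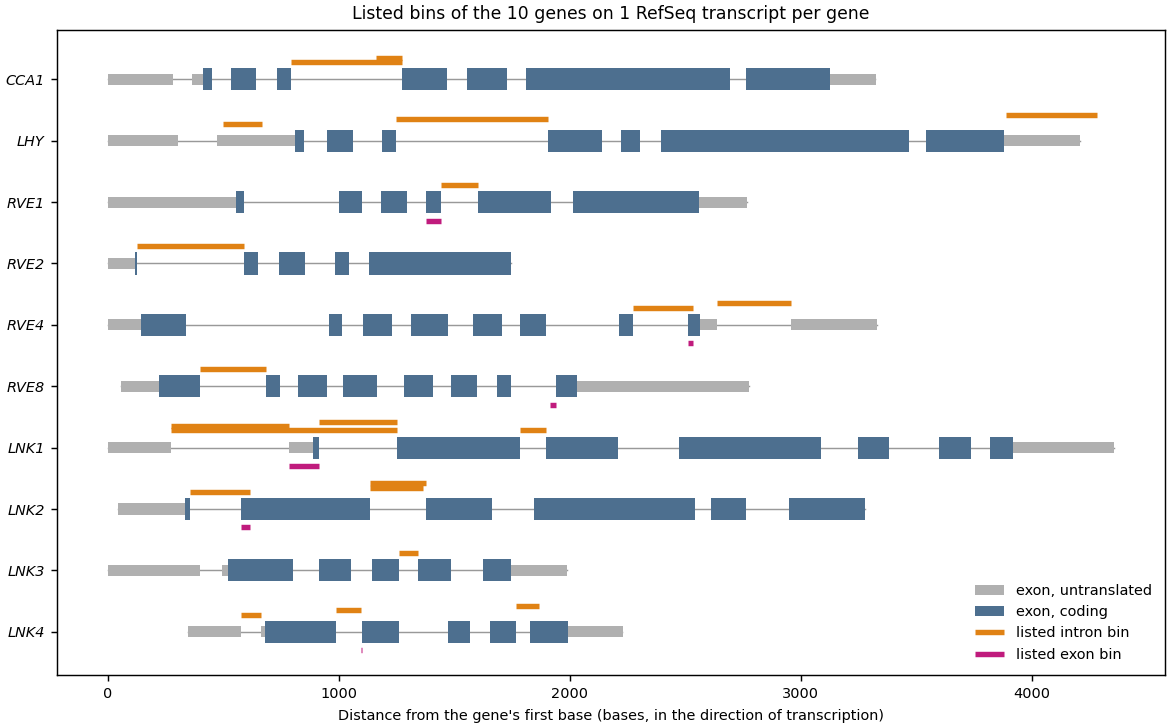
Map of the 10 genes, 1 RefSeq transcript per gene, drawn to scale as distance from the gene's first base in bases. Grey boxes are untranslated exon parts, blue boxes coding exon parts, orange bars the listed intron bins and magenta bars the listed exon bins; LNK1 and LNK2 hold several bins that overlap one another.

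For expression, the tables hold 1 FPKM value per group (fragments scaled to gene length and to mapped fragments), pooled over replicates, and list only genes called by the authors, so the depth and the replicate spread behind those values are unknown. The splicing tables give reads per library, summing over all listed features to 1299166 to 1704527 per library (dark genotype comparison), 1490471 to 2095410 (red light genotype comparison) and 301097 to 538885 (light response). The mutated gene was checked in each library. RRC1 intron 15 was retained in 88.6% to 98.4% of reads in the 6 rrc1-3 libraries and in 0.602% to 4.95% in the 6 Col-0 libraries, so each library went with its label. No label states whether the replicates were grown separately, so p-values rest on the spread between libraries, which could be technical in part or whole.

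In the dark, nearly all of the morning genes were lower in rrc1-3. The authors' deposited table listed 9 of the 10 genes as lower in rrc1-3 than in Col-0 and none as higher, and RVE4 was not listed. By comparison, 8.68% of nuclear protein-coding genes were listed as lower, and 9.49% of the 6188 genes with a bin in any splicing table. The median log2 change of the 9 genes was -1.13, beside 0.64 over all 5630 genes of the same table. These are pooled levels of whole seedlings, in which fewer cells of a type and less RNA per cell cannot be told apart.

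The dawn repressors fell alike. CCA1 stood at 10.2 FPKM in rrc1-3 and 21.7 FPKM in Col-0 in the dark, a log2 change of -1.09, and LHY at 8.98 FPKM in rrc1-3 and 20.0 FPKM in Col-0, a log2 change of -1.15 (authors' deposited table). RVE1, which promotes hypocotyl growth through auxin synthesis, fell most, to 13.9 FPKM in rrc1-3 against 36.9 FPKM in Col-0 (log2 change -1.41, authors' deposited table). The activator RVE8 was at 8.52 FPKM in rrc1-3 and 22.2 FPKM in Col-0 (log2 change -1.38, authors' deposited table). RVE2 was by far the most abundant of the listed morning genes, and even so it was at 116 FPKM in rrc1-3 against 254 FPKM in Col-0 (log2 change -1.13, authors' deposited table).

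The 4 coactivator genes fell as well. LNK2 was at 22.6 FPKM in rrc1-3 and 51.3 FPKM in Col-0, with a log2 change of -1.18 (authors' deposited table). LNK3 (log2 change -1.11, 19.0 FPKM in rrc1-3 against 41.0 FPKM in Col-0) and LNK4 (-1.07, 25.1 FPKM against 52.7 FPKM) were close to it (authors' deposited table). LNK1 showed the smallest change, -0.63 on the log2 scale, with 9.92 FPKM in rrc1-3 against 15.4 FPKM in Col-0 (authors' deposited table). All 9 genes had a deposited q-value of 0.000203.

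Several measures moved with this comparison. Among genes called in the dark, 58.7%, 39.3% and 24.3% were lower in rrc1-3 in quintiles 2, 3 and 4 of exonic GC content (1 being the lowest), and of the 9 morning genes 2, 6 and 1 lay in those quintiles. Root hair markers were higher in rrc1-3, with 4 of 6 listed as higher in the dark and 5 of 6 in red light, and their FPKM in the dark ran over 1.04 to 5.73 in rrc1-3 and 0.366 to 1.98 in Col-0 (authors' deposited table). The part of gene composition and of root tissue in the lower morning genes was not tested. The regions over which the authors summed reads also reached past some genes: that of RVE8 covers AT3G09620, that of LNK2 covers AT3G54490 and a pair of noncoding RNAs, and the ends of those of RVE1 and LNK1 overlap AT5G17305 and AT5G64160. Their strand setting is not given in the sources used here, so reads of these neighbours may be part of the FPKM.

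**Figure D2:**
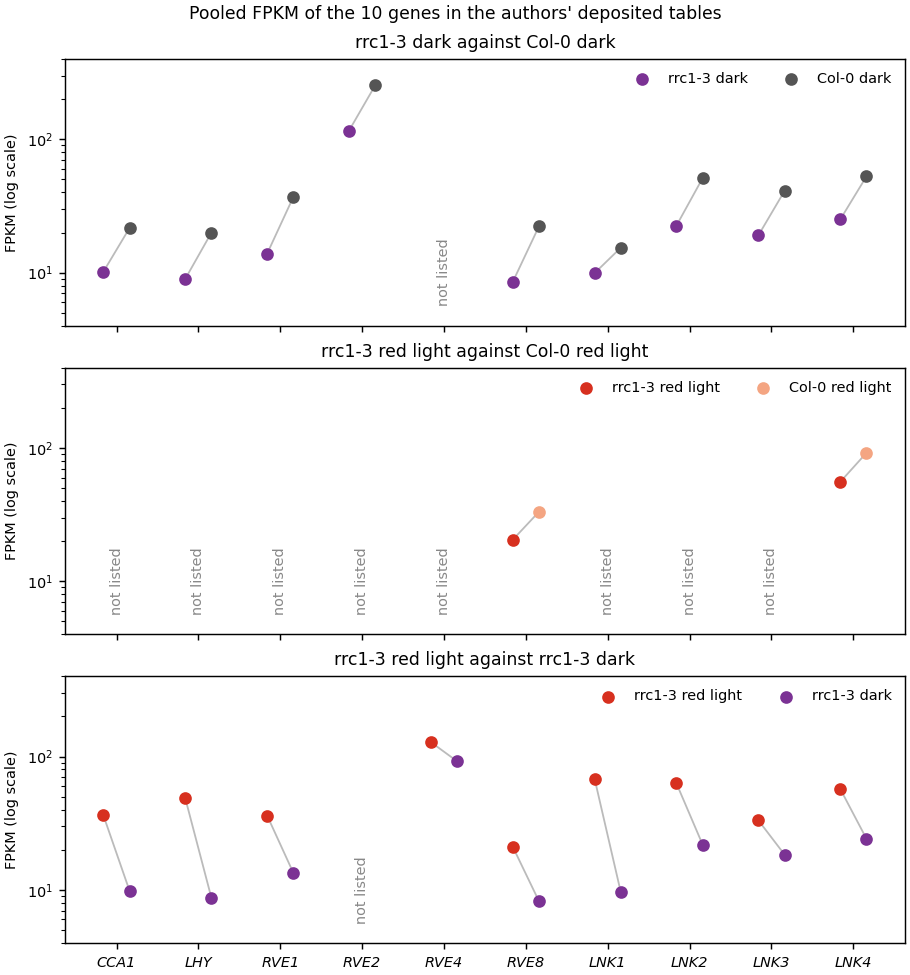
Pooled FPKM (log axis) of each gene as the authors deposited it, 1 point per group and no replicate values, for rrc1-3 and Col-0 in the dark (top), rrc1-3 and Col-0 in red light (middle), and rrc1-3 in red light and in the dark (bottom); lines join the groups of a table. The 9 listed genes lie lower in rrc1-3 in the dark, RVE8 and LNK4 lie lower in red light, and 9 genes lie higher in red light than in the dark within rrc1-3.

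After 3 h of red light, fewer morning genes were listed between the genotypes. The authors' deposited table listed RVE8 and LNK4 as lower in rrc1-3 and none of the 10 as higher, where 6.72% of nuclear protein-coding genes and 6.06% of genes with a bin in any splicing table were listed as lower. RVE8 was at 20.5 FPKM in rrc1-3 and 33.2 FPKM in Col-0 (log2 change -0.70), and LNK4 at 55.6 FPKM in rrc1-3 and 91.8 FPKM in Col-0 (log2 change -0.72, authors' deposited table). The other 8 genes were not listed, and the table holds only genes with a q-value under 0.05 and a log2 change of at least 0.58 in size. Their absence does not show equal levels, and the difference between the genotype effects in red light and in the dark was not tested, because no values per library are given for expression.

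Within rrc1-3, red light raised almost all of the morning genes. The authors' deposited table listed 9 of 10 as higher in red light than in the dark and none as lower, and RVE2 was not listed. Over the genome, 12.8% of nuclear protein-coding genes and 19% of genes with a bin in any splicing table were listed as higher. The median log2 change of the 9 genes was 1.43, beside 0.47 over all 5711 genes of the table.

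LNK1 responded most, at 68.0 FPKM in red light against 9.59 FPKM in the dark in rrc1-3, a log2 change of 2.83 (authors' deposited table). The repressors followed, with LHY at 48.7 FPKM in red light against 8.68 FPKM in the dark (log2 change 2.49) and CCA1 at 36.2 FPKM against 9.82 FPKM (1.88, authors' deposited table). LNK2, RVE1, RVE8 and LNK4 rose by log2 changes of 1.53, 1.43, 1.36 and 1.24 (authors' deposited table). LNK3 (log2 change 0.85) and RVE4 (0.48, 128 FPKM in red light against 92.2 FPKM in the dark, q = 0.000873) rose least (authors' deposited table). This comparison and the genotype comparisons share the rrc1-3 libraries, and a table of red light against dark in Col-0 was not analysed here, so whether the genotypes respond differently was not tested.

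Other clock genes were listed in both directions in the dark. Of 31 other clock genes, 3 were listed as higher and 4 as lower in rrc1-3 (authors' deposited table), and 24 were not listed. CDF1, a repressor of flowering genes, was at 0.404 FPKM in rrc1-3 and 2.13 FPKM in Col-0 (log2 change -2.39), and RVE5, COR27 and RVE6 fell by 0.85, 0.74 and 0.60 on the log2 scale (authors' deposited table). GRP7, a clock-controlled RNA-binding protein, was higher at 444 FPKM in rrc1-3 against 184 FPKM in Col-0 (log2 change 1.27), as were GI (0.74) and ELF4 (0.64), which act in the evening (authors' deposited table). In red light 4 were higher (ELF4 1.25, GRP7 0.94, GI 0.73 and TIC 0.66) and 2 lower (CDF1 -0.81 and RVE5 -0.59) on the log2 scale (authors' deposited table).

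In the light response of rrc1-3, 10 of the 31 rose and 9 fell (authors' deposited table). CDF1 (log2 change 3.82), PRR9 (2.38), ELF4 (2.13) and PRR5 (1.28) rose most, where PRR9 and PRR5 are repressors of CCA1 and LHY. JMJ30 (-1.41), COR27 (-1.15), GRP7 (-1.09) and BOA (-0.92) fell most (authors' deposited table). Of 1152 genes listed in all 3 expression tables, RVE8 and LNK4 were the only morning genes. By Euclidean distance over the 3 log2 changes, CPC (0.156), PSK3 (0.194) and AT5G17460 (0.207) were nearest to RVE8, and TOM5 (0.106), NDR1 (0.166) and AT2G21220 (0.198) nearest to LNK4.

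Since 9 of the 10 genes moved together, the 250 bases before each RefSeq gene start were searched on both strands for the evening element AAAATATCT, the CCA1-binding site AAAAATCT and the G-box CACGTG, a site known to bind phytochrome-interacting factors and HY5. The G-box was found in 5 of 10 genes (CCA1, LHY, RVE1, RVE2 and LNK3, with LNK3 holding a pair), where 6.49% of 27443 such promoters hold it. The CCA1-binding site was found in RVE2 alone, beside 6.69% of all promoters, and the evening element in none of the 10, beside 2.36%. The G-boxes are printed in capitals with 15 bases on each side, with their distance to the gene start.
CCA1, 193 bases before the start (chr2:19245383-19245418, plus strand): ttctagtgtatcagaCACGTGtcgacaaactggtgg
LHY, 80 bases before the start (chr1:37931-37966, minus strand): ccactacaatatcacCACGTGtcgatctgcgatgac
RVE1, 111 bases before the start (chr5:5693083-5693118, minus strand): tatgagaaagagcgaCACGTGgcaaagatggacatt
RVE2, 163 bases before the start (chr5:14753231-14753266, minus strand): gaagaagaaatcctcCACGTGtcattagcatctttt
LNK3, 171 bases before the start (chr3:3923329-3923364, plus strand): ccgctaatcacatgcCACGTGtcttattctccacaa
LNK3, 141 bases before the start (chr3:3923359-3923394, plus strand): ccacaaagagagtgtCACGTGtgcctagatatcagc

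Splicing of the morning genes was compared from reads per library. Inclusion of an exon or retention of an intron is given as the percent of reads that include the segment, averaged over both boundaries, among these and the reads that splice it out. Only the junctions listed for the segment count as splicing it out, so reads at other acceptors or donors of the same intron are left out. The authors' tables listed 8 of the 10 genes in the dark (9 bins), 8 in red light (16 bins) and 6 in the light response of rrc1-3 (11 bins), beside 19%, 18.5% and 2.84% of genes with an annotated intron. The inclusion reads were then tested against the exclusion reads in edgeR, giving a log2 change in odds (rrc1-3 over Col-0, or red light over dark) with p-values adjusted over each whole table. In the dark 6 of 9 bins passed an adjusted p of 0.05, in red light 10 of 16 and in the light response 10 of 11, beside 54.1%, 57.1% and 86.3% of all listed features. Since the authors listed features on the same contrasts, these shares are a description. Of the intron bins that passed, the averaged value was higher in rrc1-3 in 4 of 4 in the dark and 7 of 7 in red light, beside 47.8% and 63.6% of all listed introns that passed. In DESeq2 these counts were 1 of 1 and 7 of 7, and 1 and 7 passed under every alternative. No alternative tested single boundaries. The counts include LHY's 5′ UTR intron in the dark and LNK1 intron 1 in red light, whose boundaries differed in opposite directions. They also include RVE4 intron 7, whose value leaves out the nearer acceptor. The values of LNK1 introns 1 and 2 leave out reads that skip exon 2. That of LNK4 intron 2 leaves out acceptors farther into the exon. The counts do not show that all these introns were retained more.

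RVE1 held the bin with the largest change in log2 odds between genotypes. Exon 4 was included in 87.0%, 85.2% and 82.2% of reads in the rrc1-3 libraries in red light, against 95.8%, 96.7% and 96.6% in Col-0, with no overlap. Means were 84.8% ± 2.46 in rrc1-3 and 96.4% ± 0.499 in Col-0 (SD of 3 libraries each), and the log2 odds changed by -2.24 ± 0.24 (SE, edgeR adjusted p = 9.37e-07). Reads that join exons 3 and 5 directly numbered 76, 97 and 114 in rrc1-3 and 17, 10 and 15 in Col-0. In the dark the exon was included in 89.7%, 93.3% and 87.5% of reads in rrc1-3 against 96.0%, 96.5% and 95.3% in Col-0, again without overlap (log2 odds change -1.31 ± 0.34 SE, edgeR adjusted p = 0.00313). Counted from the annotated start codon, the reading frame without this exon would stop after 270 bases, where the annotated one has 1164. Intron 4 of RVE1 (chr5:5691389-5691550, 162 nt), which follows the exon, was retained in 12.7%, 10.9% and 15.7% of reads in rrc1-3 and 9.88%, 10.4% and 9.47% in Col-0 under red light, which did not pass the test (log2 odds change 0.46 ± 0.20 SE, edgeR adjusted p = 0.0578) except without rrc1-3 red light replicate 2 (adjusted p = 0.0329). Its length is a multiple of 3, and the frame reads through it, to 1326 bases.

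RVE2 intron 1 (chr5:14752501-14752960, minus strand, coding, 460 nt) was the morning intron retained most often in the genotype comparisons that passed. It was retained in 63.3%, 65.3% and 53.7% of reads in rrc1-3 and 51.6%, 48.1% and 46.7% in Col-0 under red light, and in 70.3%, 73.4% and 75.9% in rrc1-3 and 63.3%, 61.5% and 63.0% in Col-0 in the dark. The groups did not overlap in either condition, and the log2 odds changed by 0.70 ± 0.19 in red light (SE, edgeR adjusted p = 0.00583) and 0.70 ± 0.18 in the dark (SE, edgeR adjusted p = 0.00333). The boundaries behaved unequally. At the boundary listed first, retention was 53.7% ± 5.14 in rrc1-3 against 24.2% ± 4.28 in Col-0 under red light and 62.8% ± 8.13 against 36.2% ± 1.69 in the dark (SD of 3 libraries each). At the other it was 65.9% ± 6.58 in rrc1-3 against 61.3% ± 1.83 in Col-0 under red light and 78.9% ± 0.855 against 73.6% ± 1.09 in the dark (SD of 3 libraries each), so the genotype difference was mostly at 1 end. Spliced reads numbered 80, 82 and 58 in rrc1-3 and 336, 309 and 275 in Col-0 in the dark. Read through the intron, the frame would stop after 18 bases.

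RVE4 and RVE8 were compared at their shared acceptor pair. In RVE8 the 22 bases were kept in 34.0%, 37.8% and 41.5% of reads in rrc1-3 against 29.5%, 21.9% and 24.4% in Col-0 under red light, with no overlap (log2 odds change 0.86 ± 0.20 SE, edgeR adjusted p = 0.00207). In RVE4 they were kept in 80.4%, 77.5% and 79.2% in rrc1-3 and 77.7%, 72.3% and 76.6% in Col-0, where the groups overlapped and the change did not pass (log2 odds change 0.29 ± 0.15 SE, edgeR adjusted p = 0.0909). The nearer acceptor was thus the major one in RVE4 and the minor one in RVE8, and the difference between the genes was not tested. In the longest annotated forms, keeping the 22 bases gives a coding length of 849 in RVE8 against 897 without them, and of 882 in RVE4 against 852. Both genes also had an intron bin with a higher value in rrc1-3.

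RVE4 intron 7 (chr5:650921-651183, plus strand, 263 nt) contains the 22 bases and shares its spliced reads, those to the farther acceptor, with them. Its value was 12.4%, 16.6% and 15.4% in rrc1-3 and 11.4%, 7.84% and 8.65% in Col-0 under red light (log2 odds change 0.77 ± 0.21 SE, edgeR adjusted p = 0.0073). Reads spliced to the nearer acceptor, left out of it, numbered 2031, 1768 and 1961 in rrc1-3 and 1068, 1026 and 1349 in Col-0. The value is thus not the share of transcripts that retain the intron, and retention against all spliced reads was not tested. In the dark the value was 7.10%, 7.83% and 8.63% in rrc1-3 and 4.91%, 5.47% and 4.09% in Col-0 (log2 odds change 0.74 ± 0.26 SE, edgeR adjusted p = 0.02). By this value the groups did not overlap in either condition, but in the dark the adjusted p lay at 0.051, 0.0532 and 0.065 without rrc1-3 replicate 3, Col-0 replicate 1 and Col-0 replicate 3, and at 0.0767 in DESeq2. RVE8 intron 1 (chr3:2946638-2946924, plus strand, coding, 287 nt) was retained in 21.9%, 21.3% and 23.4% in rrc1-3 and 16.2%, 11.9% and 14.9% in Col-0 under red light (log2 odds change 0.76 ± 0.21 SE, edgeR adjusted p = 0.00618). RVE8 was thus lower in level and higher in retention in rrc1-3 in red light.

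**Figure D3:**
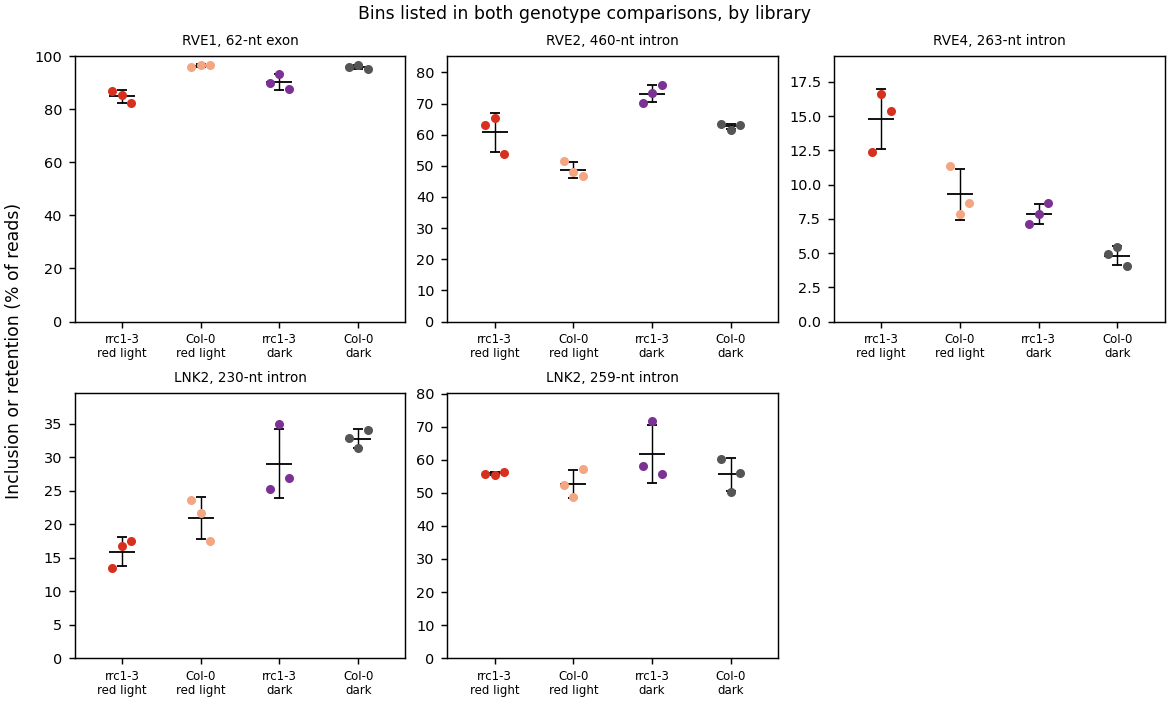
Inclusion or retention in percent of reads for the 5 bins listed in both genotype comparisons, with 1 point per library, and the mean and SD of 3 libraries in black. RVE1 exon 4 lies lower in rrc1-3, and RVE2 intron 1 and RVE4 intron 7 higher, in red light and in the dark, while the groups of the LNK2 introns overlap or do not pass the test.

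At LNK1, the bins around the start-codon exon share reads. In red light, exon 2 was included in 48.8%, 49.5% and 46.0% of reads in rrc1-3 and 55.3%, 52.6% and 51.0% in Col-0, a difference that did not pass (log2 odds change -0.28 ± 0.14 SE, edgeR adjusted p = 0.0932) although the groups did not overlap. The introns on either side of it had higher values in rrc1-3, intron 1 at 1 boundary and intron 2 at both. Intron 1 (chr5:25676041-25676551, 511 nt, in the 5′ UTR) had a value of 15.4%, 16.1% and 18.6% in rrc1-3 and 10.2%, 7.65% and 12.1% in Col-0 (log2 odds change 0.83 ± 0.21 SE, edgeR adjusted p = 0.00376). At its boundary listed first the level was 25.8% ± 2.32 in rrc1-3 and 14.2% ± 3.67 in Col-0, and at the other 5.12% ± 1.65 in rrc1-3 and 5.28% ± 0.847 in Col-0 (SD of 3 libraries each). Intron 2 (chr5:25675572-25675910, 339 nt) had a value of 13.2%, 14.5% and 17.1% in rrc1-3 and 11.3%, 7.36% and 8.77% in Col-0 (log2 odds change 0.81 ± 0.21 SE, edgeR adjusted p = 0.00447). Reads that skip exon 2, which also remove both introns, are left out of both values. They numbered 437, 395 and 492 in rrc1-3 and 367, 377 and 493 in Col-0. Neither value is thus the share of transcripts that retain the intron. The annotated form with the exon has a coding length of 1851 and the form without it 1701. In the dark, the value of the 980-nt span from exon 1 to exon 3 was 16.9% ± 2.89 in rrc1-3 and 12.3% ± 2.41 in Col-0 (SD of 3 libraries each), which did not pass (edgeR adjusted p = 0.294) on 29 to 47 spliced reads per rrc1-3 library.

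LNK2 changed at 1 of its bins between genotypes. In red light the 37-nt acceptor segment (chr3:20178455-20178491, minus strand) was kept in 92.8%, 90.8% and 90.8% of reads in rrc1-3 and 94.3%, 93.4% and 95.8% in Col-0, without overlap (log2 odds change -0.69 ± 0.19 SE, edgeR adjusted p = 0.00577). The longest annotated form that keeps it has a coding length of 2043, and the forms that remove it 1710. The 259-nt intron that contains the segment (chr3:20178455-20178713) had a value of 55.9% ± 0.568 in rrc1-3 and 52.7% ± 4.17 in Col-0 under red light (SD of 3 libraries each). It did not pass in red light (edgeR adjusted p = 0.387) or in the dark (edgeR adjusted p = 0.286). Reads of the junction that keeps the 37 nt, left out of this value, numbered 929, 1011 and 1021 in rrc1-3 and 1613, 1735 and 1897 in Col-0 under red light. The value is thus not the share of transcripts that retain the intron. A noncoding RNA gene, AT3G08405, overlaps this intron, and reads at 1 boundary were 4.67 to 16.2 times those at the other. The 230-nt intron (chr3:20177705-20177934) was lower in rrc1-3 in mean but did not pass either, at 15.9% ± 2.13 against 20.9% ± 3.09 in red light (edgeR adjusted p = 0.0661, and 0.0448 without Col-0 red light replicate 3) and 29.1% ± 5.18 against 32.8% ± 1.40 in the dark (edgeR adjusted p = 0.422, SD of 3 libraries each). Its values leave out the spliced reads of a 244-nt intron with the same donor, so they are not shares of all transcripts.

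LNK4, which forms the smaller pair of the family with LNK3, had higher values at introns 1 and 2 in rrc1-3 in red light. LNK4 intron 1 (chr5:2167698-2167783, plus strand, in the 5′ UTR, 86 nt) was retained in 10.2%, 15.2% and 16.3% of reads in rrc1-3 and 6.95%, 7.33% and 7.38% in Col-0 under red light (log2 odds change 1.04 ± 0.19 SE, edgeR adjusted p = 0.000276). LNK4 intron 2 (chr5:2168110-2168215, coding, 106 nt) had a value of 7.67%, 9.32% and 11.6% in rrc1-3 and 4.89%, 5.21% and 4.42% in Col-0 under red light (log2 odds change 1.02 ± 0.19 SE, edgeR adjusted p = 0.000379). No rrc1-3 library overlapped the Col-0 libraries at either intron. In the dark the 3 bases at the end of intron 2 were kept in 81.0%, 77.0% and 74.3% of reads in rrc1-3. In Col-0 they were kept in 87.9%, 88.8% and 86.6% (log2 odds change -1.05 ± 0.19 SE, edgeR adjusted p = 0.000117). These bases were thus left out more often in the mutant. The reads that leave them out pool the acceptor 3 bases on with acceptors farther into the exon. Which of these acceptors was used more was not tested. Only the acceptor 3 bases on is known here to change the frame by exactly 1 codon. Reads at all these other acceptors are left out of the red light value of intron 2. The 3 bases were not a listed bin in red light, so the number of such reads there is not known here. That value is thus not the share of transcripts that retain intron 2.

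LNK3 intron 4 (chr3:3924777-3924856, plus strand, coding, 80 nt) was retained in 6.17%, 11.0% and 7.81% of reads in rrc1-3 and 6.71%, 3.86% and 4.47% in Col-0 in the dark. The groups overlap, and although the test passed (log2 odds change 0.75 ± 0.28 SE, edgeR adjusted p = 0.0278), it did not without rrc1-3 replicate 2 (adjusted p = 0.226), Col-0 replicate 2 (0.0977) or Col-0 replicate 3 (0.081), or in DESeq2 (0.0894).

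Of the dawn repressors, LHY had bins listed between genotypes and CCA1 had none. In the dark its 5′ UTR intron (chr1:37204-37372, minus strand, 169 nt) was retained in 15.9%, 15.9% and 21.6% of reads in rrc1-3 and 10.5%, 8.16% and 14.3% in Col-0 (log2 odds change 0.86 ± 0.33 SE, edgeR adjusted p = 0.0307). The difference was at the boundary listed first (27.3% ± 2.71 in rrc1-3, 15.7% ± 3.06 in Col-0), while the other stood at 5.43% ± 4.54 in rrc1-3 and 5.69% ± 3.12 in Col-0 (SD of 3 libraries each), so the values do not show that the whole intron was retained more. The groups did not overlap in the mean of both, but the call was lost without rrc1-3 replicate 3 (adjusted p = 0.125), Col-0 replicate 1 (0.0732) or Col-0 replicate 2 (0.101), and in DESeq2 (0.0984). Spliced reads numbered 66, 87 and 69 in rrc1-3 and 342, 242 and 192 in Col-0. In red light a 3′ UTR intron of LHY (chr1:33590-33980, 391 nt) stood at 91.1% ± 2.28 in rrc1-3 and 94.6% ± 3.56 in Col-0 (SD of 3 libraries each; edgeR adjusted p = 0.108, and 0.0266 without Col-0 red light replicate 1). At that intron 1 boundary had 0 to 4 reads per library and the other 229 to 448, so the value does not describe reading through the intron.

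**Figure D4:**
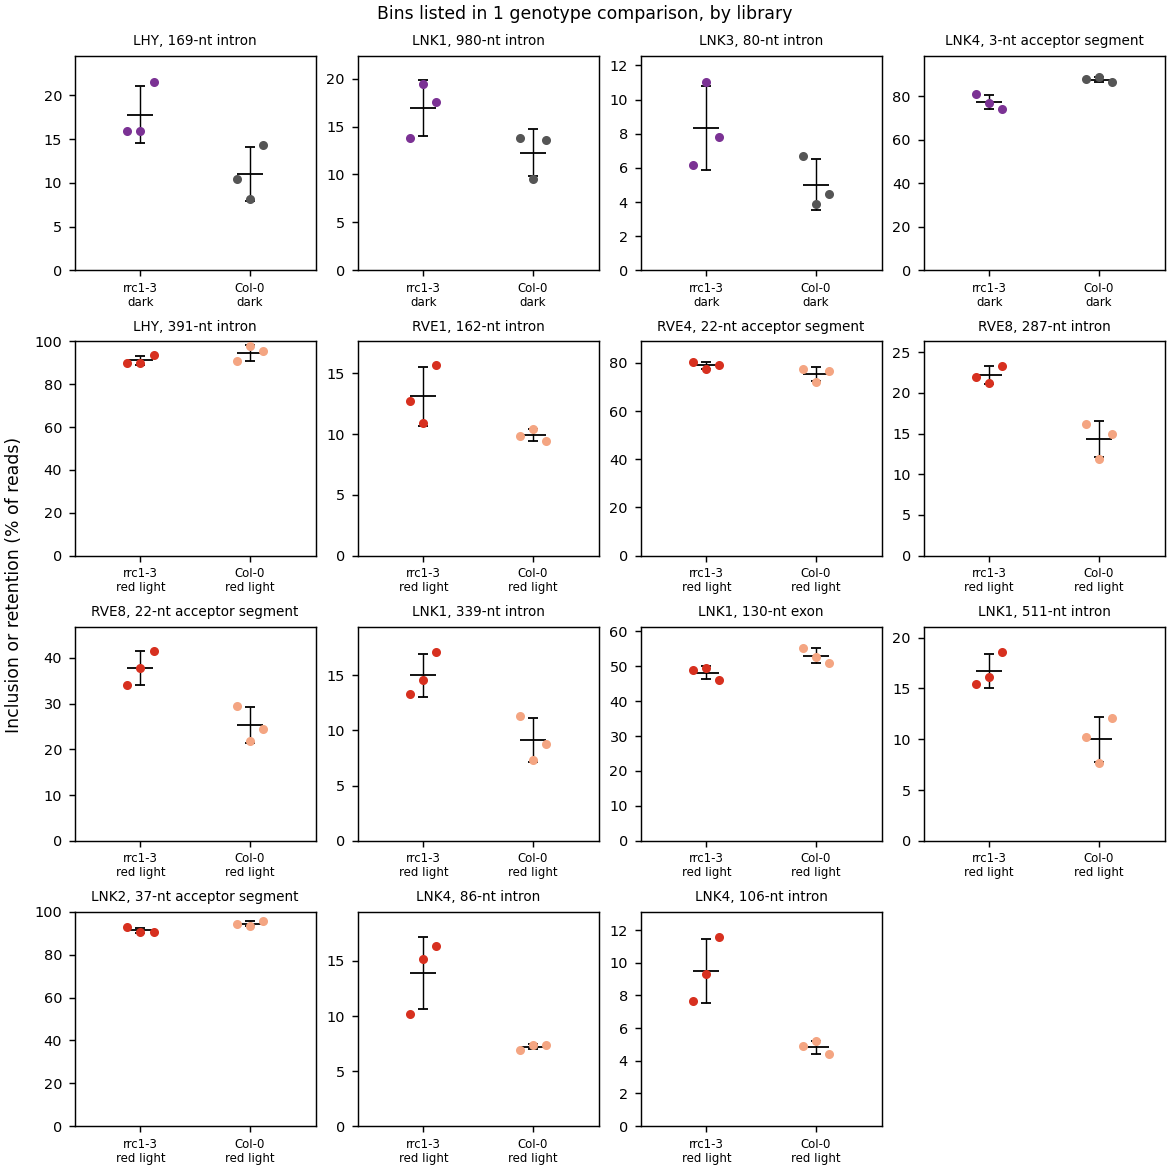
Inclusion or retention in percent of reads for the 15 bins listed in 1 genotype comparison, with the dark comparison in the top row and the red light comparison below; points are libraries, and black marks the mean and SD of 3 libraries. The RVE8, LNK1 and LNK4 introns lie higher in rrc1-3 in red light without overlap, and the LNK3 intron overlaps between the groups.

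The light response within rrc1-3 was listed mainly at the repressors and LNK1 and LNK2. Of 9 intron bins that passed, the averaged value was lower in red light than in the dark in 7 and higher in 2, while of all 705 listed introns that passed 180 were lower and 525 higher. The 7 are not separate observations, since they include a pair of LNK2 introns that share boundary reads. They also include LHY's 5′ UTR intron and a LNK1 span, which changed mostly at 1 boundary. The counts do not show that all these introns were retained less. CCA1 intron 4 (chr2:19246385-19246862, plus strand, coding, 478 nt) is known for its retained form, and its ends are shown with the first 6 and the last 3 bases in capitals.
CCA1 intron 4 start: GTAAAAtcggttaattttga
CCA1 intron 4 end: actactctcatctctctCAG

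CCA1 intron 4 had a value of 18.5%, 13.2% and 14.7% in red light and 24.8%, 26.3% and 25.9% in the dark in rrc1-3, with no overlap (log2 odds change -0.94 ± 0.22 SE, edgeR adjusted p = 0.00127). Reads spliced across it numbered 541, 647 and 614 in red light and 135, 136 and 130 in the dark, while boundary reads numbered 71 to 150 in red light and 31 to 58 in the dark at each boundary. With the intron read through, the frame would stop after 261 bases, where the annotated one has 1827. The inner 111-nt intron, which shares a boundary with it (chr2:19246752-19246862), was at 74.1% ± 7.31 in red light and 79.2% ± 8.55 in the dark (SD of 3 libraries each), and did not pass (edgeR adjusted p = 0.42). Only its own spliced reads, 33, 57 and 39 in red light and 6, 21 and 13 in the dark, enter that value. Reads spliced across intron 4 are left out, so it is not the share of transcripts that retain the inner intron. In turn, the spliced reads of the inner intron are left out of the value of intron 4. That value is thus not exactly the share of transcripts that retain intron 4.

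LHY changed in the same direction at 2 introns. The 5′ UTR intron had a value of 7.38%, 9.88% and 7.70% in red light and 15.9%, 15.9% and 21.6% in the dark in rrc1-3 (log2 odds change -1.28 ± 0.29 SE, edgeR adjusted p = 0.00115). At its boundary listed first the level was 13.3% ± 2.51 in red light and 27.3% ± 2.71 in the dark. At the other, with 1, 4 and 8 reads in the dark, it was 2.65% ± 0.70 in red light and 5.43% ± 4.54 in the dark (SD of 3 libraries each). The change was thus mostly at 1 end. The 660-nt coding intron (chr1:35964-36623) was retained in 0.674%, 0.48% and 0.493% in red light and 5.68%, 1.55% and 4.14% in the dark (log2 odds change -2.72 ± 0.49 SE, edgeR adjusted p = 0.000197). It rested on few boundary reads, at most 20 per boundary and library, and its dark libraries spread widely.

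At LNK1, inclusion of the start-codon exon was lower in light. It was 48.8%, 49.5% and 46.0% in red light against 65.6%, 76.6% and 58.1% in the dark in rrc1-3 (log2 odds change -1.17 ± 0.24 SE, edgeR adjusted p = 0.000628), and the groups did not overlap. Junction reads of both forms were more numerous in light: skipping reads numbered 437, 395 and 492 in red light and 47, 31 and 40 in the dark. The value of the 980-nt span fell to 8.53% ± 1.65 in red light against 16.9% ± 2.89 in the dark (edgeR adjusted p = 0.0104). Its boundary listed first, shared with intron 2, was at 12.4% ± 2.13 in red light and 26.1% ± 3.94 in the dark, and the other, with 2 reads in each dark library, at 4.33% ± 1.32 in red light and 5.10% ± 1.22 in the dark, so it does not show retention of the whole span. Retention of intron 3 (chr5:25674925-25675038, 114 nt) fell to 4.05% ± 0.809 against 7.84% ± 0.688 (edgeR adjusted p = 0.00407; SD of 3 libraries each).

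The LNK2 introns of 230 and 244 nt share a donor and differ by a few bases at the acceptor. The 230-nt one had a value of 13.5%, 16.8% and 17.5% in red light and 25.3%, 35.0% and 26.9% in the dark in rrc1-3 (log2 odds change -1.13 ± 0.27 SE, edgeR adjusted p = 0.00148). The 244-nt one (chr3:20177691-20177934) was at 5.93% ± 0.351 in red light and 12.9% ± 2.64 in the dark (SD of 3 libraries each; edgeR adjusted p = 0.000305). They share boundary reads, so they are not separate observations. Each value counts only the intron's own junction as spliced out. In red light these reads numbered 237, 235 and 269 for the 230-nt intron and 641, 820 and 967 for the 244-nt one. In the dark they numbered 81, 91 and 76 for the 230-nt intron and 281, 267 and 194 for the 244-nt one. Neither value is thus the share of transcripts that retain the intron.

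A listed intron bin of RVE4 and of LNK4 had a higher value in light. RVE4 intron 8 (chr5:651287-651605, in the 3′ UTR, 319 nt) was retained in 4.63%, 6.06% and 6.75% of reads in red light and 2.20%, 2.36% and 3.21% in the dark in rrc1-3 (log2 odds change 1.20 ± 0.22 SE, edgeR adjusted p = 0.000257). LNK4 intron 5 (chr5:2168886-2168985, coding, 100 nt) had a value of 11.3%, 8.36% and 13.7% in red light and 6.57%, 6.76% and 7.10% in the dark (log2 odds change 0.73 ± 0.26 SE, edgeR adjusted p = 0.0161), and without rrc1-3 red light replicate 3 or rrc1-3 dark replicate 2 the adjusted p was 0.0651 and 0.0528. This intron is annotated in 2 of 5 transcripts, and another form has a nearer acceptor. Reads spliced there are left out, so the value is not the share of transcripts that retain the intron. The values of these RVE4 and LNK4 bins went against those of CCA1, LHY, LNK1 and LNK2, although all 6 genes rose in level (authors' deposited table). Several of these values are not shares of transcripts that retain an intron. A difference in retention between the genes was not tested.

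**Figure D5:**
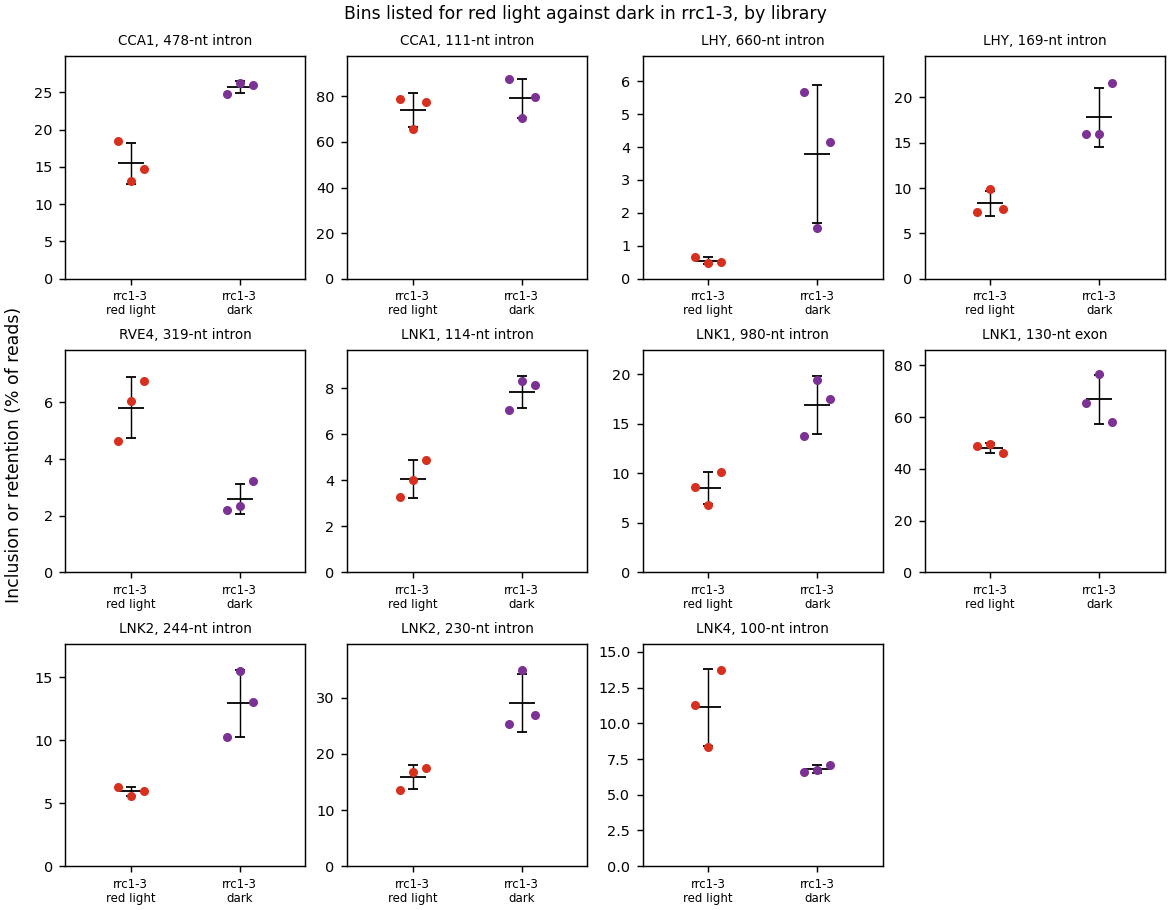
Inclusion or retention in percent of reads for the 11 bins listed for red light against dark within rrc1-3, with 1 point per library, and the mean and SD of 3 libraries in black. The bins of CCA1, LHY, LNK1 and LNK2 lie lower in red light, with overlap between groups in the 111-nt CCA1 intron, and those of RVE4 and LNK4 lie higher.

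Whether the genotype difference in splicing depends on light was tested as an interaction over all 12 libraries, on 2352 features listed in both genotype tables, of which 1 passed (0.0425%). None of the 5 bins of the morning genes passed in edgeR, 1 had an unadjusted p under 0.05, and none passed in DESeq2. That bin was RVE1 exon 4, at 84.8% in rrc1-3 against 96.4% in Col-0 under red light and 90.2% against 95.9% in the dark, with an interaction of -0.93 ± 0.43 in log2 odds (SE, edgeR adjusted p = 0.731). RVE2 intron 1 had an interaction of -0.00092 and RVE4 intron 7 of 0.03 ± 0.37 (SE, edgeR adjusted p = 1 each), so no dependence on light was detectable at this depth for either. No SE is given for RVE2, since it was derived from the test statistic, which is unreliable so near 0. With 1 library left out, the RVE2 interaction ranged over -0.14 to 0.22. In both genotypes the value of RVE4 intron 7 was higher in red light than in the dark (14.8% against 7.85% in rrc1-3, 9.29% against 4.82% in Col-0). That of RVE2 intron 1 was lower (60.8% against 73.2% in rrc1-3, 48.8% against 62.6% in Col-0), and no test was run for these differences.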

How the data were processed

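Reads were aligned with TopHat2 to TAIR10, per the submitters' processing notes, and the version is not given in the sources used here. The deposited expression tables have the layout of Cuffdiff: the authors give 1 FPKM per group, a log2 fold change, a test score, and a p-value and q-value for called genes only, so these were copied. They hold log2 changes of at least 0.58 (genotypes) or 0.29 (light response) in size and q under 0.05. FPKM differed between tables by median factors of 0.966 and 1.03, so values were compared within tables. The planned edgeR test of gene counts could not be made, since no counts per gene were given.

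The deposited splicing tables have the layout of ASpli, and per the file headers hold read counts of each library at junctions and boundaries. The authors list a feature where its FDR is under 0.05 and its deposited fraction differs by at least 0.03. The authors' fraction was recomputed from the counts within 1e-06 in 99.5% to 99.9% of features. Unnamed columns X4 to X6 were taken for replicates 1 to 3 of the table's other group, since 99.4% to 100% of features shared between tables then hold identical rrc1-3 reads.

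Features with a mean of at least 10 reads per library were tested in edgeR 4.0.16 (R 4.3.3; glmQLFit, glmQLFTest) with a term per library and Benjamini-Hochberg adjustment over each table, after a test on simulated data. DESeq2 1.42.0, other filters, boundaries, left-out libraries and a replicate block were alternatives. Libraries with the same number correlated at -0.0235 to 0.0628 between groups, so numbers were not taken as pairs. Differences are rrc1-3 minus Col-0 or red light minus dark. Python 3.11.15, pandas 2.3.3 and matplotlib 3.10.9 were used.

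The 10 genes, the lists of 31 clock genes and 6 root hair markers and the tests were chosen with earlier results of these data known. All 10 genes are named. Of other clock genes, up to 4 per direction and comparison with the largest change are named, and the nearest 3 genes to a listed member.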

Additional observations from a re-analysis of the deposited data

How the results depend on the processing

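The counts of features that passed stayed at 3140 to 3370 in the dark, 3215 to 3452 in red light and 692 to 730 in the light response with DESeq2 size factors (which leave edgeR's values unchanged here, since each library has its own term), without a filter, with at least 50 reads and with summed boundaries. With DESeq2's test, 1910 features passed in the dark (3370 in edgeR), 1949 in red light (3419) and 644 in the light response (727). Leaving out 1 library gave 2475 to 2946 in the dark, 2399 to 3025 in red light and 639 to 693 in the light response. Of 26 bins of the morning genes that passed, 22 passed under every alternative, and the exceptions are given with their values above. None of the 36 changed direction in the test's alternatives, and 3 that did not pass did so without 1 library. At single boundaries, 5 of 32 differed in opposite directions: LHY's 5′ UTR intron and LNK1's 980-nt span in the dark, LNK1 intron 1 in red light, and LNK2's 259-nt intron in both. Levels computed from 1 boundary, from pooled reads or without 1 library lay within 1 SD in 342 cases and beyond it in 74. For interactions, 1 feature passed, against 0 in DESeq2 and with summed boundaries, 3 with the replicate block and 0 to 4 with 1 library left out, and none was a bin of the morning genes. Interactions near 0 changed sign without 1 library: LNK2's 259-nt intron ranged over -0.35 to 0.13, RVE4 intron 7 over -0.087 to 0.20 and RVE2 intron 1 over -0.14 to 0.22, and RVE2 was at 0.00066 with the replicate block. The cause was not tested. The replicate block gave 3375, 3320 and 740 calls and changed no call of a morning gene.

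In expression, a q-value of at most 0.01 changed no count, and pseudocounts of 1 and 0.1 no direction. At a log2 change of at least 1, 8 genes remained lower in the dark (without LNK1), 0 in red light and 7 higher in the light response. Depth limits the LHY 5′ UTR intron, RVE2 intron 1, the 980-nt LNK1 span, the 230-nt and 259-nt LNK2 introns, the inner CCA1 intron and the RVE1 and LNK1 exons in the dark, where spliced reads fell under 100 per rrc1-3 library.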
